A study of Mus musculus with 7 samples.

Results

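Trans-synaptic adhesion molecules were examined in bulk RNA of the medial prefrontal cortex, as 53 genes chosen by symbol from families of synaptic partners and found among the 17732 genes of the authors' deposited table. All 53 symbols were present, each in 1 row, and 52 had an adjusted p-value. The exception was Slitrk6, whose mean normalized count was 5.23 in the authors' deposited table. The series concerns parvalbumin interneurons, oligodendrocytes and extracellular plasticity of the infralimbic cortex in safety learning. Per the labels, tissue came from male 129SvEv mice, an inbred strain, of WT genotype, after remote memory was retrieved. The groups are named CFC, with 3 libraries, and SC, with 4, and the labels neither spell out these names nor give an age. Whether the libraries came from separate animals is not stated, so the p-values measure the spread between libraries only. The deposited values are means over the libraries and a comparison of the groups, and values of single libraries were not analysed here. No source used here says which group is the numerator of a fold change, so each difference is called positive or negative after its sign. The mean normalized count is a read count scaled for library size and averaged over libraries, and the adjusted p-value is that of the authors' Wald test, corrected over genes.

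Synaptic adhesion molecules span the cleft between a presynaptic terminal and its target cell, and their pairings help to set where synapses form and which properties they take on. Neurexins are presynaptic hubs that bind neuroligins and LRRTM proteins across the cleft, as well as secreted cerebellins and neurexophilins. Receptor phosphatases of the LAR family (Ptprd, Ptprs, Ptprf) are a separate presynaptic hub, bound by Slitrk proteins, Lrrc4b and Il1rapl1. Latrophilins pair with teneurins and FLRT proteins, while SynCAMs (Cadm genes) bind each other from both sides. Contactins are immunoglobulin proteins held by a lipid anchor, and Caspr proteins (Cntnap genes) are members of the neurexin superfamily that often work with contactins.

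Of the 52 members tested, 4 had an adjusted p-value under 0.05, and all 4 were positive. They were Cntnap4, Nxph3, Tenm1 and Cntnap3, which are 7.69% of the members tested. Over all 13060 genes tested, 0.513% were under this threshold, 0.368% as positive and 0.145% as negative genes. Since the members were picked with results of these data known, the shares are given as a description. The 4 genes belong to 3 families: Caspr proteins, neurexophilins and teneurins. Tested for a change beyond 1.2-fold, 0 of the 4 passed, and with a Bonferroni adjustment Cntnap4 did, at 0.0115. None encodes a neurexin, a LAR phosphatase, a neuroligin or a leucine-rich repeat ligand.

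Promoters of called members are shown so that the sequence at their starts can be read beside their values. RefSeq promoters on GRCm38.p6 were matched by symbol for 40 of the 53 members, among them 2 of the 4 called ones, Tenm1 and Cntnap3. Each window runs 5′ to 3′ on the gene's strand, from 250 bases before to 50 bases after the RefSeq start. Capitals mark matches to TATAAA on either strand, the letters of a TATA box, an element that positions transcription starts. The Tenm1 window is at chrX:43274735-43275034 (minus strand), inside the gene as annotated in GENCODE M21, and the Cntnap3 window is at chr13:64903839-64904138 (minus strand).
Tenm1: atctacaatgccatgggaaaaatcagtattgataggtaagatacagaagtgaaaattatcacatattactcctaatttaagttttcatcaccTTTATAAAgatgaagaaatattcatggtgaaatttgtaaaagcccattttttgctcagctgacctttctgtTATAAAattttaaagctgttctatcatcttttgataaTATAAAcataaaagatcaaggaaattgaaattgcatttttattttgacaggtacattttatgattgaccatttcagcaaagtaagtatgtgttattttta
Cntnap3: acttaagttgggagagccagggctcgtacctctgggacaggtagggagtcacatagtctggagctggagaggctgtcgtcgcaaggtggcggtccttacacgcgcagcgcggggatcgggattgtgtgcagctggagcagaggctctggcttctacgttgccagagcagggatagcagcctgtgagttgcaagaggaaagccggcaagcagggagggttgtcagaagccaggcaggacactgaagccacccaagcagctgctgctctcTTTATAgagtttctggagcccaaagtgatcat
The windows differ in composition: the Tenm1 window has a GC content of 27% and 0 CpG dinucleotides, and the Cntnap3 window has 58% and 11. The median over the 32851 promoters of the RefSeq table was 52.7% with 7 CpG dinucleotides. TATAAA matched 4 times in the Tenm1 window, with 1 overlapping pair, and 1 time in the Cntnap3 window, after the start. Such a match was present in 13.6% of these 32851 promoters. No match was found in either window for TGACGTCA (cAMP response element), TGANTCA (AP-1), GCGTGGGCG (EGR), GGGCGG (GC box) or GGTGTGA (T-box motif), searched on both strands. The shares of the same 32851 promoters with these letters were 1.79%, 7.81%, 0.612%, 35.7% and 3.98%.

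Nxph3 encodes neurexophilin 3, a secreted glycoprotein that binds the long neurexins and is known in the cortex as a transcript of the deepest layer. In the authors' deposited table its log2 fold change was the highest of the 52 members tested, 0.86 ± 0.19 (SE, as throughout), at an adjusted p of 0.00427. This is a 1.81-fold difference, with a 95% confidence interval of the log2 fold change from 0.48 to 1.23, computed from the authors' deposited table. Its standard error was 2.43 times the median of genes of similar mean count, the widest relative error among the 4 called members. The gene (ENSMUSG00000046719) lies on GRCm38 chromosome 11 from 95509845 to 95514570, in 2 exons that overlap no other annotated gene.

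Its paralogs among the members did not pass. Nxph1, which marks interneurons in the forebrain, had a log2 fold change of -0.05 ± 0.09 (SE) in the authors' deposited table. The 95% intervals of Nxph3 and Nxph1 (-0.22 to 0.12), computed from the authors' deposited table, do not overlap. The difference between the genes was not tested. Nxph2 was the member just above the count filter, with a mean normalized count of 41.3 and a log2 fold change of 0.29 ± 0.29 (SE) in the authors' deposited table. Nxph4, the neurexophilin outside the member list, was 1.98 ± 0.36 (SE, adjusted p = 7.25e-05) in the authors' deposited table. Its mean normalized count there was also low, at 53.4. The called neurexophilins were Nxph3 and Nxph4, both positive.

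The Caspr genes among the members held the other cluster of positive values. All 5 were positive, with a median of 0.45 on the log2 scale, beside -0.0017 over all genes tested. Cntnap4, a Caspr protein known from the terminals of interneurons and dopaminergic cells, had a log2 fold change of 0.45 ± 0.09 (SE, adjusted p = 9.07e-04) in the authors' deposited table. Its mean normalized count was 730 in the authors' deposited table, and its 95% interval ran from 0.27 to 0.63, a 1.37-fold difference at the estimate. By p-value it ranked 14 among all genes of the table. Cntnap3 had a log2 fold change of 0.58 ± 0.15 (SE, adjusted p = 0.0361) in the authors' deposited table, from a mean normalized count of 244. Its 95% interval, computed from the authors' deposited table, ran from 0.28 to 0.88.

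The 3 Cntnap5 genes held both the lowest and the highest values of the family. Cntnap5c had the highest log2 fold change of the family, 0.63 ± 0.20 (SE, adjusted p = 0.159) in the authors' deposited table. Its mean normalized count of 140 in the authors' deposited table was the lowest of the family, and its unadjusted p-value was 0.00175. Cntnap5b and Cntnap5a had log2 fold changes of 0.23 ± 0.14 and 0.05 ± 0.19 (SE) in the authors' deposited table. Their 95% intervals, from -0.04 to 0.50 and from -0.31 to 0.42, include 0. Outside the member list, Cntnap1, the Caspr protein of the paranode, was -0.07 ± 0.08 and Cntnap2, its juxtaparanodal relative, was -0.05 ± 0.07 (SE) in the authors' deposited table.

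In GENCODE M21, Cntnap4 (ENSMUSG00000031772) lies on GRCm38 chromosome 8 from 112570043 to 112882717, and Cntnap3 (ENSMUSG00000033063) on chromosome 13 from 64736182 to 64903955. Exons of Cntnap4 overlap those of Gm45904 on the opposite strand, and 7.29% of its transcript 50-mers recur in that gene. Exons of Tenm1 (ENSMUSG00000016150, chromosome X from 42527866 to 43429126) overlap those of Sh2d1a on the opposite strand, with 7.96% of 50-mers shared. In all, 17 of the 53 members overlap exons of another gene, 15 of them on the opposite strand only, and 8 members share over 5% of their 50-mers with other genes. The strand setting of the counting is not given in the sources used here. Whether reads of the overlapping exons were told apart by strand is therefore not known. Cntnap3 and Nxph3 overlap no other gene and share no 50-mer with one, whereas Cntnap5c shares 2.32% of its 50-mers with 2 other genes.

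Tenm1, a teneurin that pairs with latrophilins and with teneurins on the facing cell, had a log2 fold change of 0.33 ± 0.09 (SE, adjusted p = 0.0288) in the authors' deposited table. The difference was 1.26-fold, with a 95% interval of the log2 value from 0.17 to 0.50, computed from the authors' deposited table. The other teneurins were positive without passing. Tenm4 was 0.07 ± 0.05 and Tenm2 was 0.04 ± 0.09 (SE) in the authors' deposited table. Tenm3, used for topographic wiring of several pathways, was 0.11 ± 0.24 (SE) in the authors' deposited table. Its interval from -0.36 to 0.58 contains the whole interval of Tenm1, so no difference between the pair could be read at this precision.

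The receptors and co-ligands of teneurins were near 0. Adgrl1, Adgrl2 and Adgrl3, the latrophilins, had log2 fold changes of -0.06 ± 0.05, -0.00087 ± 0.06 and 0.06 ± 0.06 (SE) in the authors' deposited table. All 3 intervals lay within a change of 1.2-fold in either direction. Of the FLRT genes, whose proteins form a bridge with latrophilin and teneurin, Flrt2 had an unadjusted p-value of 0.0474 and a log2 fold change of -0.16 ± 0.08 (SE) in the authors' deposited table. Its adjusted p-value there was 0.636. Flrt3 and Flrt1 were -0.12 ± 0.10 and 0.08 ± 0.07 (SE) in the authors' deposited table.

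**Figure D1:**
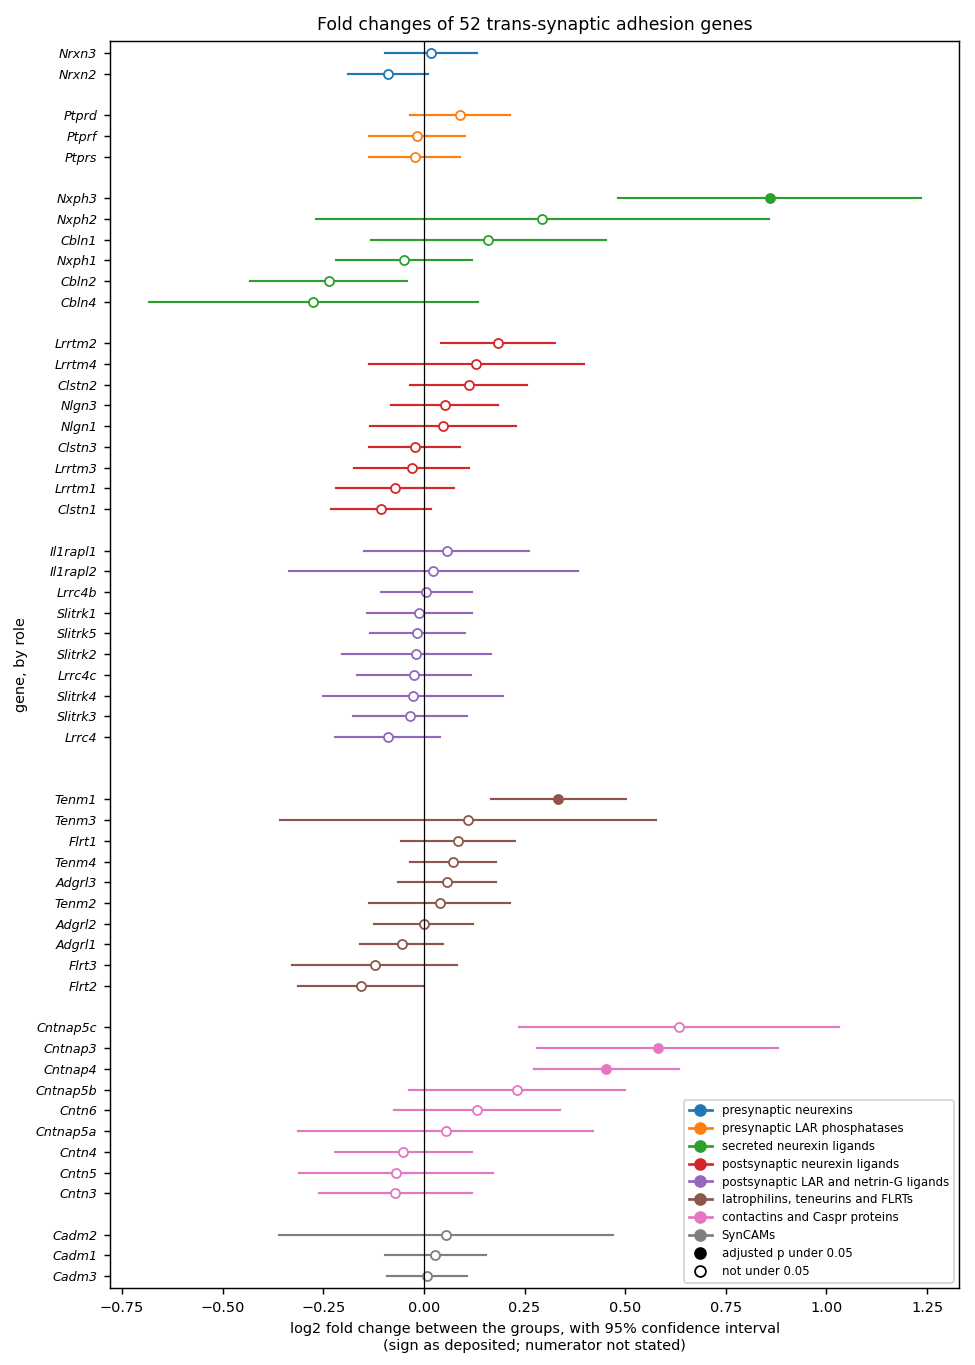
Log2 fold change of each of the 52 members tested (x axis, sign as in the authors' deposited table) with its 95% confidence interval, grouped by role and ordered by value (y axis). Filled points mark the 4 genes under an adjusted p-value of 0.05, Nxph3, Tenm1, Cntnap3 and Cntnap4, all to the right of 0, while most other intervals cross 0.

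The presynaptic hubs had no member under 0.05, with or without adjustment. Nrxn2 was -0.09 ± 0.05 (SE, adjusted p = 0.77) and Nrxn3 was 0.02 ± 0.06 (SE, adjusted p = 0.999) in the authors' deposited table. Ptprd, Ptprs and Ptprf were 0.09, -0.02 and -0.02, each ± 0.06 (SE), in the authors' deposited table. All 5 intervals lay inside a 1.2-fold change.

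Among secreted linkers, cerebellins join neurexins to delta-type glutamate receptors. Cbln2, a cerebellin of cortical excitatory neurons, had the lowest p-value of the negative members, with a log2 fold change of -0.24 ± 0.10 (SE, unadjusted p = 0.0178) in the authors' deposited table. It did not pass after adjustment, at 0.447 in the authors' deposited table. Cbln4, which in the cortex is found in somatostatin interneurons, had the lowest log2 fold change of the members tested, -0.27 ± 0.21 (SE) at a mean normalized count of 116 in the authors' deposited table. Cbln1 was 0.16 ± 0.15 (SE) in the authors' deposited table. The delta receptor Grid1 of the wider list was 0.17 ± 0.08 (SE, unadjusted p = 0.027) in the authors' deposited table.

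Postsynaptic ligands of neurexins had 5 positive and 4 negative members, centred on a median log2 value of 0.05. Lrrtm2, which helps to hold AMPA receptors at the synapse, had the lowest p-value of this group. Its log2 fold change was 0.18 ± 0.07 (SE, unadjusted p = 0.0111, adjusted p = 0.379) in the authors' deposited table. Exons of Lrrtm2 overlap those of Ctnna1 on the opposite strand. Lrrtm1, Lrrtm3 and Lrrtm4 were -0.07 ± 0.08, -0.03 ± 0.07 and 0.13 ± 0.14 (SE) in the authors' deposited table. The neuroligins Nlgn1 and Nlgn3 were 0.05 ± 0.09 and 0.05 ± 0.07, and Nlgn2 of inhibitory synapses, outside the member list, was -0.04 ± 0.05 (SE) in the authors' deposited table. The annotation gives Nlgn3 an overlapping gene on its own strand, Gm21986, and 40.9% of Nlgn3's 50-mers recur in other genes, so its value is uncertain. The calsyntenins, cadherin-type proteins, ranged from -0.11 ± 0.06 for Clstn1 to 0.11 ± 0.07 (SE) for Clstn2 in the authors' deposited table.

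Postsynaptic ligands of LAR phosphatases and netrin-G lay close around 0. Their 10 tested members had log2 fold changes from -0.09 (Lrrc4) to 0.06 (Il1rapl1) in the authors' deposited table, and 9 of the 10 intervals lay within a 1.2-fold change. All 5 tested Slitrk genes lay between -0.03 (Slitrk3) and -0.01 (Slitrk1) in the authors' deposited table. The interval that did not lie within a 1.2-fold change was that of Il1rapl2, a receptor-like protein of low abundance, from -0.34 to 0.38. Slitrk6 was -0.68 ± 0.75 (SE) in the authors' deposited table, at a count too low to resolve a difference.

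SynCAMs and contactins likewise held no member under an unadjusted 0.05. Cadm1, Cadm2 and Cadm3 were 0.03, 0.05 and 0.0071 in the authors' deposited table. Cadm2 had the widest error of the 3, 0.21 against 0.06 and 0.05, in the authors' deposited table. Contactins 3 to 5 were between -0.07 (Cntn3) and -0.05 (Cntn4), and Cntn6 was 0.13 ± 0.11 (SE), in the authors' deposited table. Contactin genes outside the member list were both positive, Cntn1 at 0.09 ± 0.06 (SE) and Cntn2, which oligodendrocytes also express, at 0.44 ± 0.16 (SE), in the authors' deposited table. Their adjusted p-values there were 0.821 and 0.256.

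Over all members, 8 of 52 (15.4%) had an unadjusted p-value under 0.05, 6 positive and 2 negative. Over all genes tested this share was 8.1%, with 4.56% positive and 3.54% negative. At an unadjusted 0.01 there were 5 members, all positive, beside 2.97% of all genes tested, 1.8% as positive ones. Beyond the 4 called genes, those under 0.05 were Cntnap5c, Lrrtm2, Cbln2 and Flrt2. The signs of all members were nearly balanced, with 28 positive and 24 negative genes, and their log2 fold changes had a median of 0.01, beside -0.0017 over all genes tested. For 32 members, 61.5% of those tested, the 95% interval lay within a change of 1.2-fold in either direction, as it did for 47.1% of all genes. Members had a median mean normalized count of 1750, above the 512 of all genes tested, in the authors' deposited table, and errors narrow with count.

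The wider list held synaptic adhesion genes and also secreted proteins and intracellular scaffolds such as Dlg4. Of its 45 genes tested, 3 (6.67%) were called, 2 positive and 1 negative, beside the same 0.513% of all genes. Besides Nxph4 these were Sdk2, a sidekick protein that binds itself across the cleft, and Nptxr, the neuronal pentraxin receptor that gathers AMPA receptors. Sdk2 was 0.33 ± 0.09 (SE, adjusted p = 0.0361) and Nptxr was -0.24 ± 0.06 (SE, adjusted p = 0.00684) in the authors' deposited table. At an unadjusted 0.05 the list had 14 genes (31.1%), 7 of each sign, beside 8.1% of all genes tested. This list, too, was chosen with results of these data known, so its shares are a description. Positive ones included Mdga2, a blocker of neuroligins, at 0.21 ± 0.08 and the homophilic Ncam1 at 0.19 ± 0.07 (SE) in the authors' deposited table. Nptx1, a secreted pentraxin, was also positive, at 0.16 ± 0.07 (SE) in the authors' deposited table. Negative ones included the presynaptic netrin-G Ntng2, a partner of Lrrc4, at -0.25 ± 0.09, Nectin3 at -0.24 ± 0.09 and the activity-linked pentraxin Nptx2 at -0.33 ± 0.13 (SE) in the authors' deposited table. Further negative genes were Nectin1 at -0.16 ± 0.08, the postsynaptic scaffold Dlg4 at -0.11 ± 0.05 and the postsynaptic adhesion gene Lrfn1 at -0.14 ± 0.07 (SE) in the authors' deposited table.

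**Figure D2:**
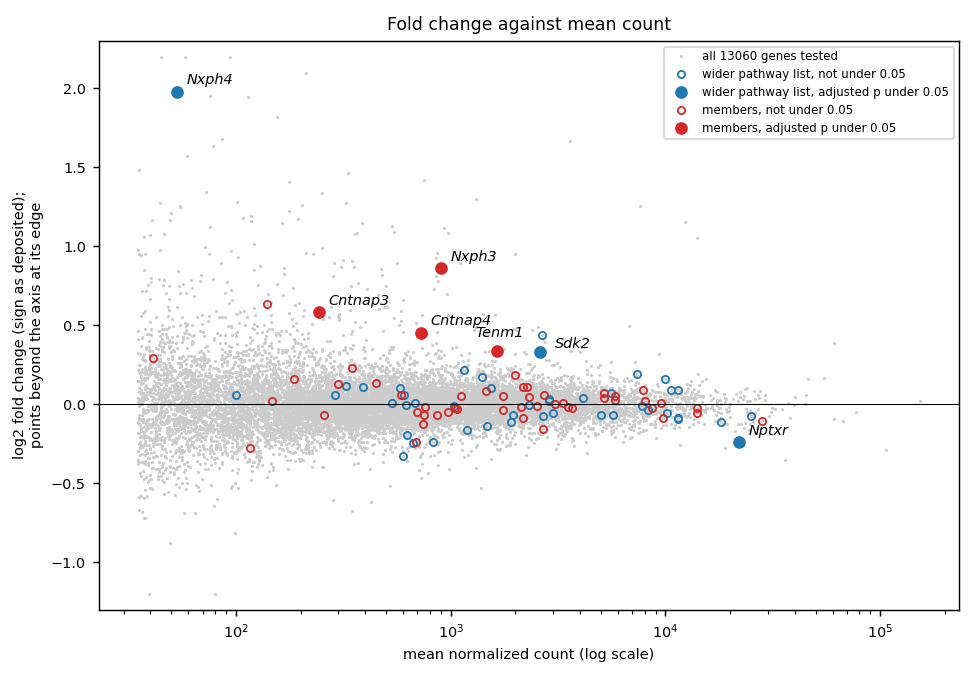
Log2 fold change (y axis, sign as deposited, grey points beyond the axis drawn at its edge) against mean normalized count (x axis, log scale) for all 13060 genes tested, the wider list in blue and the members in red. The 4 called members, filled red and named, lie above 0 between mean counts of 244 and 1649, and the called genes of the wider list are Nxph4, Sdk2 and Nptxr.

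Markers of several cell types had a shared sign in the same comparison. All 7 deep-layer markers were positive, 4 of them called, with a median log2 value of 0.49, and all 7 upper-layer markers were negative, with a median of -0.27 and 2 called. All 8 oligodendrocyte markers were positive, from 0.95 (Cnp) to 1.67 (Mobp), and 0 were called by the Wald test of the authors' deposited table, although all 8 had an unadjusted p-value under 0.05. All 6 striatal markers were positive, with a median of 0.95 and 1 called. Standard errors were above 1.5 times the median of genes of similar mean count for all 8 oligodendrocyte and 5 striatal markers. The same held for 3 deep-layer markers and for 1 each of the upper-layer, interneuron and oligodendrocyte precursor markers. For the oligodendrocyte markers this ratio ran from 4.43 to 9.09. Interneuron markers had 3 of either sign and a median of 0.0032, and excitatory neuron, astrocyte and oligodendrocyte precursor markers had medians of -0.02, -0.07 and 0.05. The excitatory marker Camk2a was called, at -0.29 ± 0.06 (SE) in the authors' deposited table. No marker of these 8 lists was at 0. Summed mean normalized counts were 145640 for 4 excitatory markers, 28402 for oligodendrocyte, 7873 for deep-layer and 2537 for striatal markers in the authors' deposited table. Camk2a alone had 106077 of the excitatory sum. The sums were not divided by length and the lists differ in size, so they do not compare levels of cell types. In bulk tissue, fewer cells of a type and less RNA per cell cannot be told apart. The part of these markers in the values of Nxph3, Cntnap4, Cntnap3 and Tenm1 was not tested, and a summed level per group was not analysed here.

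Precision differed among members of like abundance. The ratio of each standard error to the running median at its mean count was above 1.5 for 6 members, 11.5% of those tested, beside 2.21% of all genes. Tenm3 and Cadm2 had ratios of 3.67 and 3.65, and Cntnap5a had 2.53, followed by the 2.43 of Nxph3. Slitrk4 and Tenm2 were just above the limit, at 1.53 and 1.52. Of these 6, Nxph3 was the one under a p-value of 0.05. For Tenm3 and Cadm2 the mean normalized counts were 2180 and 5835 in the authors' deposited table, so a low count does not accompany their wide errors. The other 3 called genes had ratios from 1.10 (Cntnap4) to 1.25 (Tenm1).

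**Figure D3:**
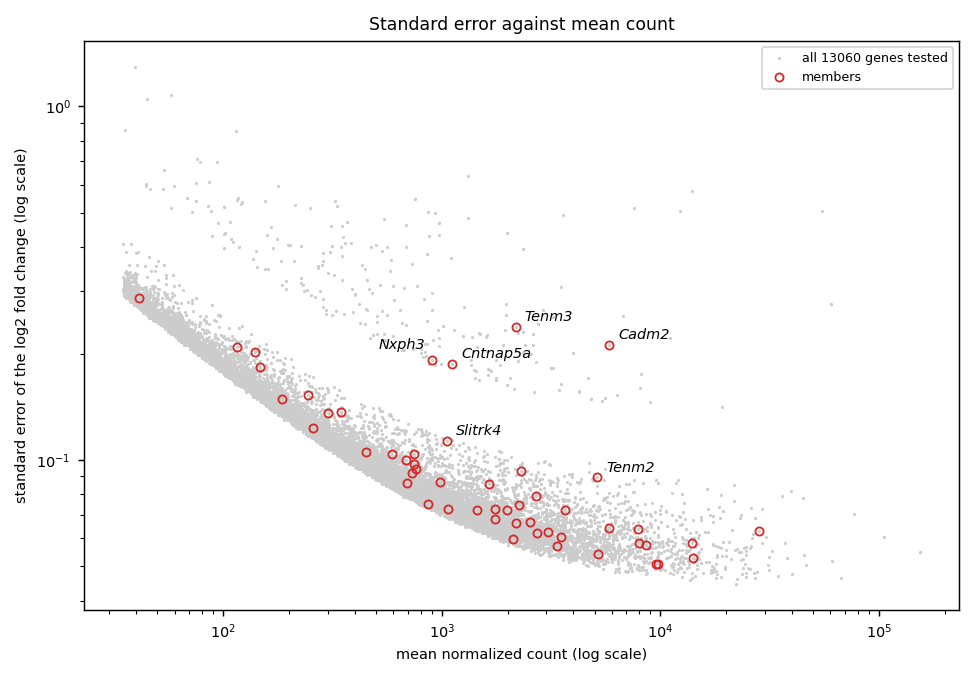
Standard error of the log2 fold change (y axis, log scale) against mean normalized count (x axis, log scale) for all 13060 genes tested in grey and the members in red. The 6 named members have errors more than 1.5 times the running median, with Tenm3, Cadm2, Cntnap5a and Nxph3 in a band apart from the main trend.

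Levels were compared between genes as mean normalized count per kb of merged exons, pooled over both groups, and they spanned a ratio of 4901 from Clstn1 to Slitrk6. The median of the 53 members was 238 counts per kb. Clstn1, a calsyntenin that also links cargo to kinesin, stood at 6044 counts per kb, followed by Clstn3 at 1735, Adgrl1 at 1639, Cadm3 at 1318 and Lrrc4b at 1143. These 5 were the members above 1000 counts per kb. Presynaptic hubs were all above the median of the members. Ptprs was at 931, Nrxn2 at 708, Nrxn3 at 637, Ptprf at 384 and Ptprd at 345 counts per kb. Values of single libraries were not analysed, so neighbours in this order cannot be separated by their spread.

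Called members came from the lower part of this range apart from Nxph3. Nxph3 was at 431 counts per kb, the highest of the secreted linkers, ahead of Cbln2 at 238 and Nxph1 at 146. Cntnap4 was at 116, Tenm1 at 92.9 and Cntnap3 at 38.1 counts per kb. Contactins and Caspr proteins had the lowest median of the role groups, 69.1 counts per kb, and all 9 lay at or below the 116 of Cntnap4. Tenm1 was the lowest of the teneurins, beside 449 for Tenm2, 246 for Tenm4 and 213 for Tenm3. Within the Slitrk family, Slitrk1 at 472 and Slitrk5 at 404 were highest, and Slitrk6 was listed at 1.23 counts per kb.

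**Figure D4:**
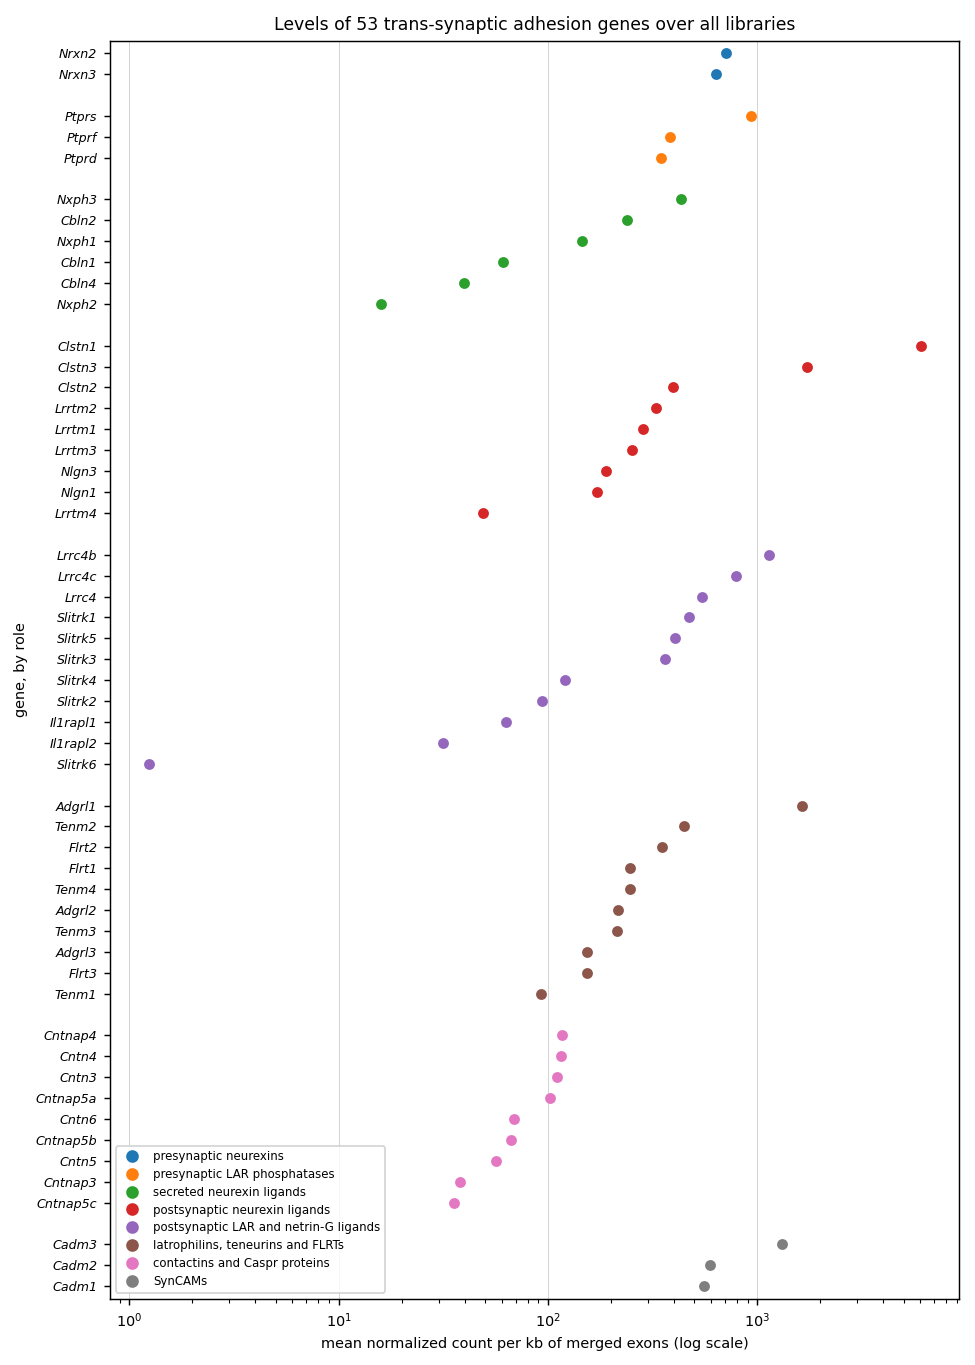
Mean normalized count per kb of merged exons (x axis, log scale) over all libraries for the 53 members, grouped by role and ordered by level (y axis). Each point is 1 gene, and the members run from 1.23 counts per kb for Slitrk6 to 6044 for Clstn1.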

How the data were processed

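Polyadenylated RNA of 7 libraries (3 CFC, 4 SC) was measured. Per the labels' protocols, the RNeasy Micro kit was used for extraction, and libraries were made with the KAPA mRNA HyperPrep kit. The submitters' processing notes name Trimmomatic, Subread, DESeq2 and mm10 without versions or settings. The authors deposited 1 table of their own comparison. Per the file headers it holds for each gene a mean normalized count (a signal pooled by the authors over libraries), a log2 fold change, its standard error on the log2 scale, a test score (the Wald statistic), a p-value and an adjusted p-value. Depth per library is unknown. A score equal to fold change over error was found in all 17732 genes, and a p-value equal to its two-sided normal probability in all 17729 genes that have one (relative tolerance 1e-06). The design had planned a count test only for a table of counts.

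Calls use the deposited adjusted p-value at 0.05. Adjusted p-values start at a mean count of 34.9. Computed here, with Python 3.11.15, pandas 2.3.3 and scipy 1.17.1, were 95% normal intervals, levels per kb of merged exons of GENCODE M21 (GRCm38, the assembly of mm10; all 53 members matched by Ensembl ID), error ratios over a window of 201 genes, shared 50-mers and motif matches. Statistics were tested on simulated data. Alternatives changed the threshold, filter, adjustment, null hypothesis and transcript length. Members, role groups and lists were chosen with earlier results of these data known. Members with an unadjusted p-value under 0.05, the extremes of each role group in fold change and of all members in level, the members nearest the count filter and family relatives outside the list were to be named; some of the latter are not reported here. Further members named to complete a family or an ordering were chosen after their values were seen.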

Additional observations from a re-analysis of the deposited data

How the results depend on the processing

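The 4 called members stayed the same genes with a threshold of 0.1, with no filter on the mean count and with a mean count of at least 100. Chosen after seeing the data, an adjustment recomputed over the 13060 genes tested also kept these 4. This nearly repeats the deposited adjustment, with Cntnap3 at 0.0327 beside 0.0361 by the Wald test. A Bonferroni adjustment left 1 of the 4, Cntnap4, while testing for changes beyond 1.2-fold left 0. In the latter, 3 members had an unadjusted p-value under 0.05 by the same Wald test on the authors' deposited values. Both are stricter by construction. Members without an exon overlap, also chosen after seeing the data, held 2 of the 4, Cntnap3 and Nxph3. At an unadjusted threshold of 0.01 there were 5 members in place of 8, and the 2 negative ones, Cbln2 and Flrt2, were not among them. The median log2 fold change of the members was 0.01 and moved to 0.0071 with all members or with a mean count of at least 100. Per kb of the longest transcript, the median level was 274 in place of 238 counts per kb, and Spearman's rho between the orders across genes was 0.97. No paired analysis was possible because replicate numbers cannot be tied to values in a table of the 2 groups' comparison, and leaving out single libraries was not run for the same reason. Whether 1 library decides a call was therefore not tested.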
